A study of Homo sapiens with 18 samples.

Results

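The metallothioneins are small metal-binding proteins, and their RNA was followed here as 8 genes taken by symbol: MT1A, MT1E, MT1F, MT1G, MT1H, MT1M, MT1X and MT2A. All 8 were found among the 57500 genes of the deposited count tables. The cells were THP-1, a human monocytic leukaemia line, carrying stably a non-targeting short hairpin (shNT) or a hairpin against the nuclear receptor gene NR4A2 (shNR4A2) or NR4A3 (shNR4A3). All 3 lines were kept under puromycin, placed for 2 h in buffered medium, and collected after a further 2 h either without stimulus (control) or with lipopolysaccharide (LPS, a bacterial cell wall component) at 2.5 µg/ml. This gave 6 groups of 3 libraries, 18 in all. Each hairpin is represented by 1 cell line, so a difference between lines cannot be told apart from a difference between these particular transduced populations. Total counts ran from 16171161 to 23929138 per library, with a median of 19639071.

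Metallothioneins bind zinc, copper and cadmium through clusters of cysteines, buffer free zinc and protect cells from metal and oxidative stress. Their transcription is switched on by the zinc-sensing factor MTF1, which binds metal response elements in the promoters of the family, and many members also respond to glucocorticoids and cytokines. In monocytes and macrophages the family is known as part of the handling of zinc and copper during responses to bacteria.

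The coding sequences are shown because their likeness bears on whether reads can be assigned to 1 member. They were read from GRCh38 through the principal GENCODE 29 transcripts. Each of the 8 had 186 bases and 61 codons before the stop, of which 20 encoded cysteine. Printed here are 4: the most abundant, the one responding to LPS, the one differing most clearly between shNR4A2 and shNT cells, and the one without counts. Capitals mark the cysteine codons.
MT1E: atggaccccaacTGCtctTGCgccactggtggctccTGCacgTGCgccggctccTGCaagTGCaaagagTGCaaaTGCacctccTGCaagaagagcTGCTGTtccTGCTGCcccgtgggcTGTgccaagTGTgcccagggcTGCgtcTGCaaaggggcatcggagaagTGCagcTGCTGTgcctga
MT2A: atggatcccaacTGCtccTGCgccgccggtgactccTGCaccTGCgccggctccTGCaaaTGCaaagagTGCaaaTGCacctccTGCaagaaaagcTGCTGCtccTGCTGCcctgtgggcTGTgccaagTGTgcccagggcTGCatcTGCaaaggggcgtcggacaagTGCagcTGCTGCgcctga
MT1X: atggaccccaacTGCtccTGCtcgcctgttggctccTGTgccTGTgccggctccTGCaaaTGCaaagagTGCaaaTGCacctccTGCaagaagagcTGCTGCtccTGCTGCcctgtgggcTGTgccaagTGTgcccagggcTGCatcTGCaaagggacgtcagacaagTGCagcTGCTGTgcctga
MT1H: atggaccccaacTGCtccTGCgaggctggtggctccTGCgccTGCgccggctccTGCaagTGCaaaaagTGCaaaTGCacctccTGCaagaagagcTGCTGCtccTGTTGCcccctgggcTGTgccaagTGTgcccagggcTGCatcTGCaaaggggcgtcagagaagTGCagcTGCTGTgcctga
Identity between pairs ran from 88.7% (MT1F and MT1X, 21 differing bases) to 95.2% (MT1G and MT2A, 9 differing bases). Reads of fragments within this shared stretch are the ones a counter could misplace. Of all 50-base windows in the annotated exons, between 1.22% (MT1F) and 18.3% (MT1X) were identical to a window of another gene. At 150 bases, the read length, MT1X was the only member with shared windows (8.58%). All of these lay in AC026461.1, a gene annotated over MT1X on the same strand, which had 0 counts in the 18 libraries. No window of 100 or 150 bases was identical between members. How reads with several matches were counted is not given in the sources used here. Part of the members' counts may therefore have been lost or, for shorter reads, moved between them.

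The genes lie together on chromosome 16 of GRCh38. MT2A stands at the left edge (chr16:56608199-56609497), followed by MT1E (chr16:56625475-56627112), MT1M (chr16:56632233-56633986), MT1A (chr16:56638666-56640087), MT1F (chr16:56657694-56660698), MT1G (chr16:56666731-56668065), MT1H (chr16:56669814-56671129) and MT1X (chr16:56682424-56684196). MT1G is transcribed from the minus strand and the others from the plus strand. Each principal transcript has 3 exons.

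Promoters are shown for the 3 members that RefSeq's table held (GRCh38.p14), to set the metal response elements beside the expression of the same genes. The 250 bases before each RefSeq start site are printed on the plus strand. Capitals mark TGCACNC or TGCGCNC, the 2 forms of the metal response core, on either strand.
MT2A, chr16:56608334-56608583: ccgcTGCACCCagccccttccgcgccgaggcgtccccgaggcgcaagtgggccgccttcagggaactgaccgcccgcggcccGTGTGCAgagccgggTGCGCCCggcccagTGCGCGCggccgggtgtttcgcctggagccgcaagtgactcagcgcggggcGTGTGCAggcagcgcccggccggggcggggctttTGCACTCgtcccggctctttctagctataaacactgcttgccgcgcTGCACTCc
MT1X, chr16:56682220-56682469: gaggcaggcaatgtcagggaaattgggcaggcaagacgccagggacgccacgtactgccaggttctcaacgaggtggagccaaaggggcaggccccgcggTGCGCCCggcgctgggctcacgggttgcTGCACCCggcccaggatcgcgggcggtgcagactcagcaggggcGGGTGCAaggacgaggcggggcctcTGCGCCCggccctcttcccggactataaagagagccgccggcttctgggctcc
MT1H, chr16:56669564-56669813: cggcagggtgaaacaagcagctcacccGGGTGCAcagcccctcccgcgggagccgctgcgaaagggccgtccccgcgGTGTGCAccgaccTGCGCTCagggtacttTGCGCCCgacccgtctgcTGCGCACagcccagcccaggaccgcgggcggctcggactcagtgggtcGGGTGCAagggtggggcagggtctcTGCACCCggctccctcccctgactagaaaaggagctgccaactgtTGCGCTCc
In the full window, which ran on for 50 bases past the start site, MT2A held 8 matches, MT1H 8 and MT1X 4. At least 1 match was present in 29.55% of the 35116 promoters searched, at least 4 in 0.6009% and at least 8 in 0.01993%. MT2A alone of the 3 held TGACTCA, the AP-1 sequence, found in 4.949% of all promoters. It overlapped a match to TGACNNNGC, the core of the antioxidant response element, which was also present once in MT1X and in 13.35% of all promoters. AAAGGTCA, the sequence bound by NR4A monomers, matched in none of the 3 (1.216% of all promoters), nor did the kappaB motif (11.27%). MT1H thus carried as many metal response cores as MT2A in this window, with no counts in any library. For MT2A, GENCODE 29 also lists a transcript that begins before this window.

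The hairpin targets were as labelled. NR4A2 stood at 1.82, 1.63 and 2.41 TPM (counts scaled for library depth and for the length of the gene's merged exons) in the shNR4A2 control libraries, against 4.16, 2.83 and 4.08 TPM in shNT control cells. With LPS the values were 20.5, 28.3 and 14.8 TPM against 62.2, 74.7 and 51.3 TPM. NR4A3 stood at 0.158, 0.107 and 0.0315 TPM in shNR4A3 control cells against 0.556, 0.693 and 0.512 TPM, and with LPS at 17.0, 18.2 and 16.7 TPM against 30.9, 32.3 and 31.9 TPM. In all 4 of these comparisons the groups did not overlap. Of 10 monocytic markers, 10 had counts in every library, with a summed level of 1230 to 3378 TPM. SPI1 had the highest median over the 18 libraries. The sums were 1926 to 2269 TPM in shNT, 2493 to 2709 in shNR4A2 and 2944 to 3378 in shNR4A3 control libraries. With LPS they were 1230 to 1510, 1798 to 2072 and 2141 to 2443 TPM in the same order. These marker sums thus differed without overlap between the lines, and were lower with LPS. The single markers did not all follow the sums. With LPS the mean of CEBPA fell from 1102 to 219 TPM in shNT cells, while that of SPI1 rose from 571 to 748 TPM. Without LPS LYZ averaged 192, 615 and 883 TPM in shNT, shNR4A2 and shNR4A3 cells, but CEBPA 1102, 945 and 1137 TPM. A link with the metallothioneins was not tested. Markers of T cells summed to at most 6.83 TPM, led by TRAC. Epithelial, fibroblast and erythroid markers stayed at or below 2.42, 0.948 and 0.477 TPM.

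Metallothionein RNA was plentiful in unstimulated THP-1 cells and came almost wholly from 5 of the 8 genes. In shNT control cells MT1E was highest, at 115, 108 and 131 TPM (118 ± 11.7, SD, n = 3). MT1G followed at 63.5, 75.2 and 77.3 TPM (72.0 ± 7.48). MT2A stood at 41.0, 50.5 and 55.9 TPM (49.1 ± 7.57). These 3 genes did not overlap one another. MT1F, at 47.0, 48.2 and 51.7 TPM (49.0 ± 2.40), lay within the range of MT2A. MT1X had 33.1, 29.1 and 34.9 TPM (32.4 ± 2.94), below every MT1F library. MT1M and MT1A were near the limit of counting, at 1.57 ± 0.437 and 0.794 ± 0.702 TPM, and overlapped. The order of the 5 abundant members depended on the length used, since the merged exons of some members are much longer than their principal transcript. Over the 18 libraries the mean levels were 137 TPM for MT1E, 76.7 for MT2A, 70.0 for MT1G, 49.4 for MT1F and 40.7 for MT1X. Per base of the principal transcript they became 205 TPM for MT1E, 160 for MT1X, 135 for MT1F, 129 for MT1G and 127 for MT2A. MT1E stayed highest in these means over all groups, and MT1X moved from the lowest of the 5 to the next highest. In shNT control cells alone the levels per base of the principal transcript were 177 ± 17.5 TPM for MT1E, 134 ± 6.57 for MT1F, 133 ± 13.8 for MT1G, 127 ± 11.6 for MT1X and 81.2 ± 12.5 for MT2A (n = 3). There MT1F, MT1G and MT1X overlapped one another, MT1E lay above them and MT2A below.

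Sparse members set the limit of what could be compared. MT1H had 0 counts in all 18 libraries, which allows a level of up to 0.638 to 0.939 TPM per library (3 counts). MT1A had 37 counts in total, spread over 13 libraries with at most 5 in any one. Neither passed the filter on low counts in any comparison. MT1M had 216 counts in total and from 2 to 38 in a library. It passed the filter in all comparisons that included shNR4A2 cells and in that of LPS in shNT cells. Each comparison therefore tested 6 of the 8 members, or 5 where MT1M was filtered out. Because MT1M entered the comparisons of shNR4A2 cells with another line mainly through the libraries where it was high, it is kept apart from the counts and medians of the 5 abundant members. MT1E, with 14174 counts in total and at least 521 in a library, was the most deeply covered.

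**Figure D1:**
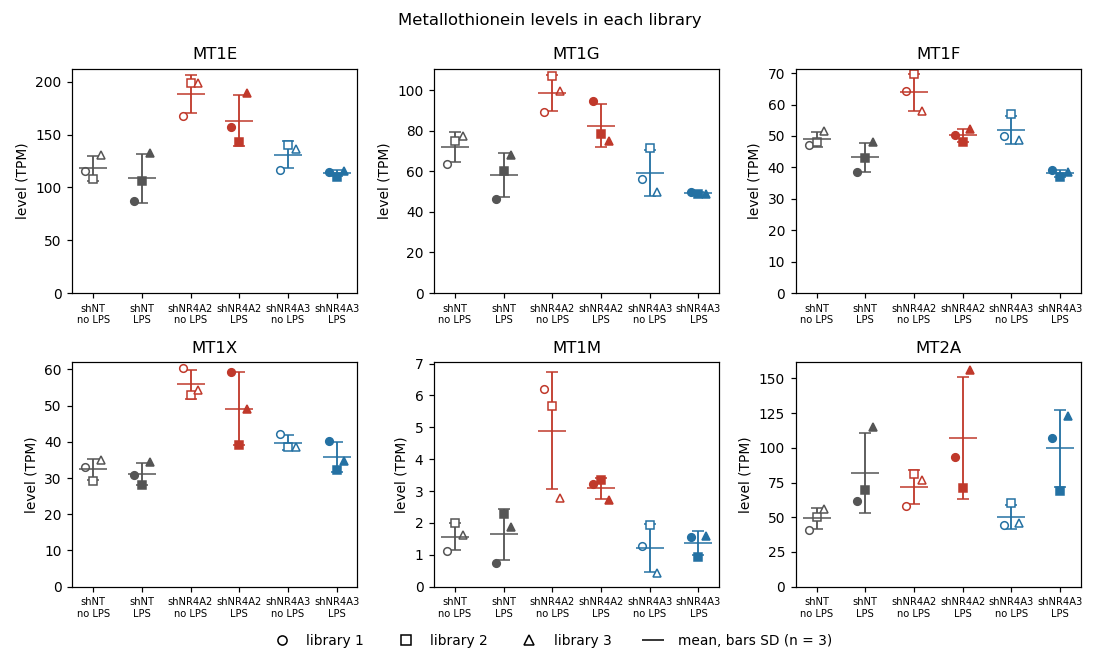
Level in TPM (vertical axis, from 0) of 6 metallothioneins in the 6 groups, one symbol per library by its number, with group means and SD bars (n = 3). The shNR4A2 control libraries lie above the shNT control libraries for each of the 6 genes, and only MT2A has its highest values in the groups with LPS.

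Summed over the 8 genes, the level was highest in shNR4A2 cells. shNT control libraries held 302, 314 and 352 TPM (323 ± 26.2, n = 3) and shNR4A2 control libraries 447, 517 and 492 TPM (485 ± 35.4). These groups did not overlap. shNR4A3 control libraries held 311, 371 and 320 TPM (334 ± 32.7), which overlapped with shNT. With LPS the sums were 267, 311 and 402 TPM in shNT cells (326 ± 68.8), 460, 384 and 526 TPM in shNR4A2 cells (457 ± 71.0) and 352, 298 and 363 TPM in shNR4A3 cells (338 ± 35.0). With LPS the shNR4A2 sums in TPM overlapped with those of shNT cells but not with those of shNR4A3 cells. Each LPS group overlapped with the control group of its own line. On the TPM scale the median over all tested genes moved by -0.23, -0.28 and -0.24 (log2) with LPS in shNT, shNR4A2 and shNR4A3 cells, whereas on counts scaled by edgeR's TMM factors it moved by -0.01, -0.02 and -0.01. Fold changes are therefore given on the TMM scale. With TMM scaling the log2 ratio of the mean sums, LPS against control, was 0.26 in shNT cells, 0.20 in shNR4A2 cells and 0.25 in shNR4A3 cells. In bulk RNA a change in the level per cell and a change in the share of cells with the RNA cannot be told apart.

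Within the sum, LPS changed the proportions. MT2A made up 13.6%, 16.1% and 15.9% of the summed TPM in the shNT control libraries and 23.2%, 22.3% and 28.7% with LPS. In shNR4A2 cells its share was 13.0%, 15.8% and 15.6% without LPS and 20.3%, 18.6% and 29.6% with it. In shNR4A3 cells it was 14.3%, 16.2% and 14.3% without LPS and 30.4%, 23.0% and 33.9% with it. Every LPS library exceeded every control library of its line, and a share within a library does not depend on the scaling between libraries.

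**Figure D2:**
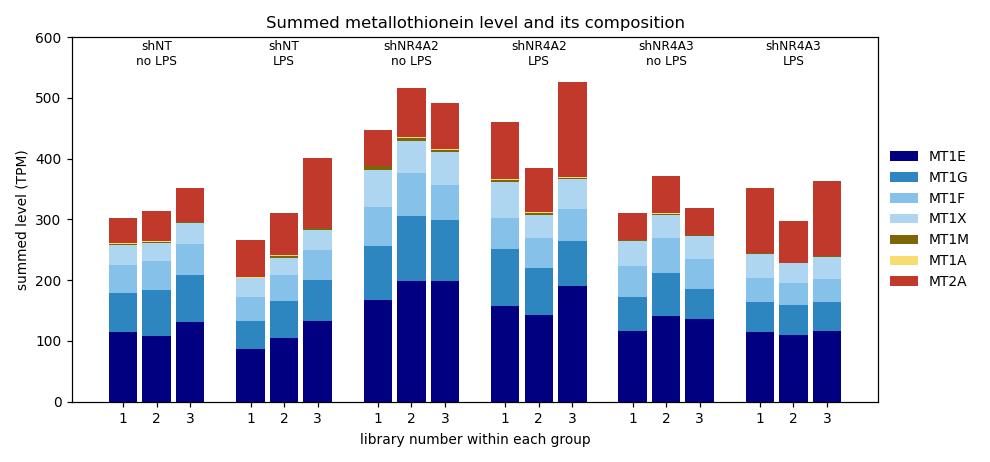
Stacked bars of the summed metallothionein level in TPM (vertical axis, from 0) in each of the 18 libraries, coloured by gene and grouped by line and treatment. The shNR4A2 control bars reach 447 to 517 TPM against 302 to 352 TPM in shNT control cells, and the MT2A segment is a larger part of each bar with LPS.

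The first comparison asked which metallothioneins respond to LPS in each line. MT2A rose in all 3 lines and was the only member to do so. In shNT cells it had 41.0, 50.5 and 55.9 TPM without LPS and 62.0, 69.4 and 115 TPM with it. The groups did not overlap, and LPS library 3 stood well above the others. The log2 fold change was 0.97 (SE 0.205), with an adjusted p of 0.00314 by edgeR's quasi-likelihood test with Benjamini-Hochberg adjustment over 15711 genes. In shNR4A3 cells MT2A had 44.5, 60.3 and 45.7 TPM without LPS and 107, 68.6 and 123 TPM with it, again without overlap (log2 fold change 1.24, SE 0.208, adjusted p = 0.00106 by edgeR). The groups did not overlap in 8.43% of all genes tested in shNT cells and 10.5% in shNR4A3 cells in this direction. In shNR4A2 cells the values were 58.3, 81.4 and 76.5 TPM without LPS and 93.7, 71.3 and 156 TPM with it. Here the groups overlapped, since LPS library 2 lay below 2 of the control libraries. The log2 fold change was 0.85 (SE 0.256, adjusted p = 0.0339 by edgeR).

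The rise of MT2A in shNR4A2 cells was also called with the library number as a block (adjusted p = 0.0181), by DESeq2 (0.00453) and in 1 fit of all 18 libraries (0.0287). Its size depended most on LPS library 3, without which the log2 fold change was 0.47 (adjusted p = 0.123). Without control library 1, 2 or 3 the log2 fold change was 0.72, 0.96 and 0.88, and the adjusted p 0.0979, 0.0809 and 0.0644. MT2A was highest in library 3 of the LPS group in all 3 lines. Those libraries also had the highest share of counts in short genes (length limit 1000 bases) of their group. It was 2.19%, 2.56% and 2.22% in shNT, shNR4A2 and shNR4A3 cells. The median log2 fold change of short genes with LPS was 0.08, 0.14 and 0.18 in the same order. MT2A, with merged exons of 1299 bases, is above that limit, and a link was not tested. With every library numbered 3 left out, the log2 fold change of MT2A in shNR4A2 cells was 0.49 and not called (adjusted p = 0.201). In shNT cells it was then 0.69 (adjusted p = 0.00714), and shNR4A3 cells gave 1.00 (adjusted p = 0.0392).

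The MT1 genes did not pass the test with LPS in any line. In shNT cells their log2 fold changes ran from -0.08 (MT1G) to 0.29 (MT1M, SE 0.496), and the lowest adjusted p was 0.383. In shNR4A2 cells they ran from -0.40 (MT1M, SE 0.370) to 0.09 (MT1X), with a lowest adjusted p of 0.501. In shNR4A3 cells they ran from -0.21 (MT1F) to 0.08 (MT1X), with a lowest adjusted p of 0.172. For MT1E, MT1F, MT1G and MT1X the standard errors lay between 0.102 and 0.178. In TPM, MT1F was lower without overlap with LPS in shNR4A2 and shNR4A3 cells and MT1E in shNR4A3 cells, but so were 38.1% of the genes tested in shNR4A2 cells and 41.1% in shNR4A3 cells. Of the 5 abundant members 1 thus rose in each line, where 11.6%, 9.23% and 13.1% of all genes tested rose in shNT, shNR4A2 and shNR4A3 cells. The median log2 fold change over the 5 was 0.10, 0.07 and 0.02 in the 3 lines, against -0.01, -0.02 and -0.01 over all genes.

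The next comparison asked what NR4A2 depletion does in the unstimulated state. All 5 abundant members were higher in shNR4A2 than in shNT control cells, without overlap between the groups, and 2 of them passed the test (MT1X and MT1E), as did the sparse MT1M. Of the 15800 genes tested, 13.7% were higher without overlap and 3.63% were called higher. MT1X had 60.3, 53.0 and 54.2 TPM in shNR4A2 cells against 33.1, 29.1 and 34.9 TPM, a log2 fold change of 0.79 (SE 0.118, 1.73-fold, adjusted p = 0.00256 by edgeR). MT1E had 168, 199 and 199 TPM against 115, 108 and 131 TPM (log2 fold change 0.68, SE 0.112, 1.60-fold, adjusted p = 0.00445). The lowest shNR4A2 library of each gene exceeded the highest shNT library by a wide margin. Both calls held without any 1 library. With every library numbered 3 left out only MT1X stayed called, and MT1E then had a log2 fold change of 0.70 (adjusted p = 0.0639).

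MT1M passed the filter on low counts only through the shNR4A2 libraries, so its direction was favoured by the filter. It had 38, 28 and 16 counts in the shNR4A2 control libraries against 6, 9 and 8, or 4.89 ± 1.83 against 1.57 ± 0.437 TPM. The log2 fold change was 1.64 (SE 0.426, adjusted p = 0.0411 by edgeR). The call was lost by DESeq2 (adjusted p = 0.0517) and without shNT control library 1 (0.138), 2 (0.0684) or 3 (0.128) or shNR4A2 control library 1 (0.136) or 2 (0.0900).

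The other 3 members were higher by less. MT2A had 58.3, 81.4 and 76.5 TPM in shNR4A2 control cells against 41.0, 50.5 and 55.9 TPM (log2 fold change 0.56, SE 0.157, adjusted p = 0.0593). MT1G had 89.5, 107 and 99.6 TPM against 63.5, 75.2 and 77.3 TPM (0.46, SE 0.134, adjusted p = 0.0672). MT1F had 64.3, 69.6 and 57.9 TPM against 47.0, 48.2 and 51.7 TPM (0.39, SE 0.118, adjusted p = 0.0762). MT2A passed without shNR4A2 control library 1 (adjusted p = 0.0294) and with no filter on low counts (0.00636), and MT1F in 1 fit of all 18 libraries (0.0419). With the library number as a block all 5 abundant members passed, at adjusted p from 4.98e-05 (MT1X) to 0.00679 (MT1F), where 12.1% of genes were called higher. DESeq2 called 4 (MT1X, MT1E, MT2A and MT1G), where it called 4.43% of genes higher. The median log2 fold change was 0.56 over the 5 abundant members and -0.00 over all genes tested.

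In the presence of LPS the difference between shNR4A2 and shNT cells had the same direction in the 5 abundant members. Fewer passed than without LPS in the fit without a block. With the library number as a block all 5 passed in both states. MT1X had 59.3, 39.1 and 49.1 TPM in shNR4A2 cells against 30.9, 28.0 and 34.3 TPM and was the only member called (log2 fold change 0.72, SE 0.187, adjusted p = 0.0497 by edgeR, with 4.31% of 15590 genes called higher). This call was at the limit and was lost without shNT LPS library 1 (adjusted p = 0.136), 2 (0.184) or 3 (0.0843) or shNR4A2 LPS library 1 (0.147) or 3 (0.0873). MT1E had 157, 143 and 190 TPM against 87.1, 106 and 133 TPM (0.65, SE 0.181, adjusted p = 0.0654). It passed with either shNT LPS library 3 (0.0390) or shNR4A2 LPS library 2 (0.0241) left out. MT1G had 94.6, 78.3 and 75.0 TPM against 46.5, 60.3 and 68.2 TPM (0.56, SE 0.175, adjusted p = 0.0928). The groups did not overlap for these 3 genes, whereas 10.8% of all genes were higher without overlap. For MT1F they nearly touched, at 47.95 TPM in shNR4A2 library 2 and 47.94 TPM in shNT library 3 (0.27, SE 0.125, adjusted p = 0.228 by edgeR). MT2A overlapped, at 93.7, 71.3 and 156 TPM against 62.0, 69.4 and 115 TPM (0.44, SE 0.319, adjusted p = 0.460). Its estimate ran from 0.05 without shNR4A2 LPS library 3 to 0.79 without shNT LPS library 3, and no such fit called it. With the library number as a block 5 members passed (MT1E, MT1X, MT2A, MT1G and MT1F, adjusted p from 1.88e-08 to 0.0206), where 15.2% of genes were called higher. DESeq2 called MT1X and MT1E, where it called 5.06% of genes higher. MT2A went from an adjusted p of 0.460 to 0.000259 with the block.

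Depletion of NR4A3 was compared with shNT in the same way. No member passed in either state by edgeR, where 3.91% and 3.99% of genes were called higher without and with LPS, and DESeq2 also called 0 of the 5 tested in each state. At an unadjusted p under 0.05 there was 1 member of 5 (MT1X) without LPS and 0 of 5 with it, where 20.9% and 23.0% of all genes tested had such a p. MT1X had 42.2, 38.5 and 38.6 TPM in shNR4A3 control cells against 33.1, 29.1 and 34.9 TPM in shNT control cells, without overlap, as did 9.67% of all genes (log2 fold change 0.35, SE 0.119, adjusted p = 0.103). It passed with the library number as a block (adjusted p = 0.0333), where 8.09% of genes were called higher. The other 4 members overlapped between the lines. MT1G was the only one of the 5 with a negative estimate without LPS (-0.24, SE 0.148), and MT2A, MT1F and MT1E ran from 0.07 (MT2A) to 0.20 (MT1E). With LPS the estimates ran from -0.19 (MT1G) to 0.34 (MT2A, SE 0.273), and each of the 5 members tested overlapped. MT1M was filtered out in both comparisons, with 2 to 8 counts in the shNR4A3 control libraries.

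**Figure D3:**
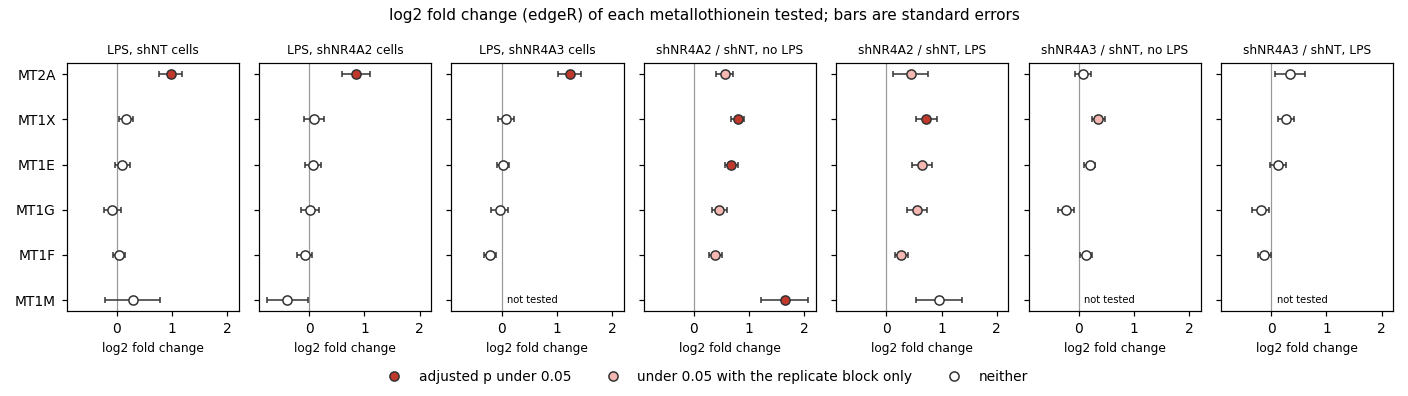
log2 fold change (horizontal axis) of the 6 testable metallothioneins in 7 comparisons, with bars for the standard error, red fill for members called by edgeR and pale fill for those called only with the library number as a block. In LPS against control only MT2A is called, while in shNR4A2 against shNT without LPS the 5 abundant members lie above 0.

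The 2 depleted lines were also set directly against each other. Without LPS the 5 abundant members were estimated higher in shNR4A2 than in shNR4A3 cells, with a median log2 difference of 0.48 against 0.00 over all genes, and 4 of them did not overlap (12.7% of 15584 genes). MT1G and MT1E were called, where 1.94% of genes were called higher. MT1G had 89.5, 107 and 99.6 TPM against 56.3, 71.8 and 49.9 TPM (log2 fold change 0.69, SE 0.154, adjusted p = 0.0286 by edgeR). The call was lost without shNR4A2 control library 2 (0.0613) or 3 (0.0620) or shNR4A3 control library 1 (0.104) or 3 (0.138). MT1E had 168, 199 and 199 TPM against 116, 141 and 136 TPM (0.48, SE 0.118, adjusted p = 0.0470), and its call was lost without any 1 library other than shNR4A2 control library 1, at adjusted p from 0.0791 to 0.188. It was also lost in 1 fit of all 18 libraries (0.0747). MT1M, which passed the filter only through the shNR4A2 libraries, had an estimate of 1.99 (SE 0.502, adjusted p = 0.0504), which passed without shNR4A2 control library 3 (0.0234) or shNR4A3 control library 2 (0.0477). With the block 4 abundant members passed (MT1G, MT1E, MT1X and MT2A), as did MT1M, where 6.04% of genes were called higher. DESeq2 called MT1G and MT1E, where it called 2.3% of genes higher.

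With LPS the same comparison called MT1G alone. It had 94.6, 78.3 and 75.0 TPM in shNR4A2 cells against 50.0, 48.7 and 48.7 TPM in shNR4A3 cells (log2 fold change 0.75, SE 0.144, adjusted p = 0.0374 by edgeR, with 1.27% of 15539 genes called higher). The 3 shNR4A3 libraries were nearly equal and all lay below the lowest shNR4A2 library. The call was lost without any 1 library other than shNR4A2 LPS library 2, at adjusted p from 0.0607 to 0.157. MT1E had 157, 143 and 190 TPM against 114, 110 and 116 TPM (0.53, SE 0.139, adjusted p = 0.0943), and passed without shNR4A2 LPS library 2 (0.0414). MT2A differed least, with an estimate of 0.10 (SE 0.319) and overlapping values. In all, 3 of the 5 abundant members (MT1E, MT1F and MT1G) did not overlap, where 11% of genes were higher without overlap. The block called 4 (MT1E, MT1F, MT1G and MT1X), where 11.8% of genes were called higher, and DESeq2 called MT1G and MT1E, where it called 2.39% higher. These comparisons share libraries with those against shNT, so that their values are not separate evidence.

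Whether the response to LPS itself differed between the lines was tested as an interaction. edgeR called 0 members and 0 of all genes (0.0%) in each of the 3 pairs of lines, 0 members had an unadjusted p under 0.05, and neither DESeq2 nor the block called a member. At an unadjusted p under 0.05 there were 365 genes of 16674 for shNR4A2 against shNT, 824 of 16428 for shNR4A3 against shNT and 396 of 16447 for the 2 depleted lines. For MT2A the response was smaller in shNR4A2 than in shNT cells by an estimate of -0.11 (SE 0.389) and larger in shNR4A3 than in shNT cells by 0.26 (SE 0.345). Between the depleted lines the estimate was -0.38 (SE 0.386). A difference in response was not detected for any member, which does not show that the lines responded alike.

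Members varied together from library to library. On log2 CPM (counts scaled to library depth) with each group's mean removed, the 18 libraries gave a Pearson r of 0.875 between MT2A and MT1E, 0.753 between MT2A and MT1F, and 0.743 between MT1F and MT1G. The lowest of the 10 pairs among the 5 abundant members was MT1G with MT1X, at 0.381. With the group means left in, MT1E and MT1X reached 0.851, whereas MT2A and MT1F stood at 0.243. These values describe libraries that share depth, scaling and possibly experiment, and no test was made. The level of MT1E was highest in library 3 in 5 of the 6 groups and that of MT2A in 4 of 6, but for MT1G and MT1X this held in 2 of 6.

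Of 12 other metallothionein genes listed, 9 had any count, and MT1L alone passed the filter and was tested. MT1L, a transcribed pseudogene between MT2A and MT1E, had 19.3 ± 2.30 TPM in shNT control, 32.7 ± 10.3 in shNR4A2 control and 8.68 ± 2.03 in shNR4A3 control cells. With LPS the values were 15.9 ± 2.55, 30.3 ± 3.98 and 9.73 ± 3.63 TPM (n = 3 each). It fell by 1.11 on the log2 scale in shNR4A3 against shNT cells without LPS (SE 0.278, adjusted p = 0.0277 by edgeR, 0.0893 by DESeq2), a call lost without any 1 library other than shNR4A3 control library 2 (0.0662 to 0.101). It was higher in shNR4A2 than in shNR4A3 cells by 1.87 without LPS (SE 0.311, adjusted p = 0.00496) and by 1.62 with LPS (SE 0.297, adjusted p = 0.0321), and the last call was lost without any 1 of the 6 libraries (0.0544 to 0.0994). Against shNT it was higher in shNR4A2 cells with LPS by 0.97 (SE 0.230, adjusted p = 0.0361). It did not pass in shNR4A2 against shNT cells without LPS (0.76, SE 0.261, adjusted p = 0.113), in shNR4A3 against shNT cells with LPS (-0.65, SE 0.318, adjusted p = 0.258) or with LPS against control in any line.

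The genes that regulate metallothioneins or handle metals were counted in 7 lists. SLC30A4 is left out of the LPS totals, since it passed the filter on low counts only through the LPS libraries of shNT and shNR4A3 cells. With LPS 17, 15 and 19 of 57 listed genes were called higher in shNT, shNR4A2 and shNR4A3 cells (29.8%, 26.3% and 33.3%), and 4, 3 and 5 lower (7.02%, 5.26% and 8.77%), against 11.6%, 9.23% and 13.1% of all genes higher and 13.3%, 10.1% and 15% lower. These counts are a description, and no difference from all genes was tested. Of 5 regulators, 2 rose in each line. MTF1, the zinc-sensing factor, went from 21.0 ± 3.71 to 101 ± 3.81 TPM in shNT cells (log2 fold change 2.50, SE 0.102, adjusted p = 2.91e-10 by edgeR), and by 2.54 and 2.88 in shNR4A2 and shNR4A3 cells. NFE2L2, which encodes the oxidative stress factor NRF2, rose by 2.52, 2.61 and 2.53. One of the 5 was called lower in shNT and in shNR4A2 cells and 2 in shNR4A3 cells.

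Metal transporters and stores gave the following counts with LPS, in shNT, shNR4A2 and shNR4A3 cells in turn. Zinc exporters (SLC30 genes) were called higher in 1 of 7, 1 of 6 and 2 of 7 tested and lower in 1 in each line. The gene called lower was SLC30A1 in each line, with log2 fold changes of -0.93, -0.82 and -0.84. Among those called higher, SLC30A4 (0.388 ± 0.0935 against 0.0553 ± 0.0140 TPM in shNT cells) had its direction favoured by the filter, and without it the exporters called higher were 0, 1 and 1 of 6. Zinc importers (SLC39 genes) were called higher in 3, 3 and 4 of 11 and lower in 0, 0 and 1, and SLC39A8, which brings zinc into activated monocytes, rose by 0.81 in shNT, 1.46 in shNR4A2 and 1.40 in shNR4A3 cells. Copper genes were called higher in 0, 0 and 1 of 10 and lower in 0. Iron genes were called higher in 5, 4 and 5 of 10 and lower in 1. Ferritin heavy chain (FTH1) rose by 2.24, 2.19 and 2.47 and the iron importer gene SLC11A2 by 1.56, 1.79 and 1.89, while the iron exporter gene SLC40A1 fell by 1.15 in shNT, 0.77 in shNR4A2 and 1.04 in shNR4A3 cells. Heat shock genes were called higher in 4, 2 and 2 of 9 and lower in 0. Glucocorticoid-responsive genes were called higher in 3, 3 and 4 of 6 and lower in 1, 0 and 0. DUSP1, a MAP kinase phosphatase gene, rose by 3.23, 3.83 and 3.40. TSC22D3 was the gene called lower in shNT cells (-0.39), and its estimates were -0.14 and -0.19 in shNR4A2 and shNR4A3 cells.

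Between the lines without LPS, 2 of 57 listed genes were called higher and 3 lower in shNR4A2 against shNT cells (3.51% and 5.26%, against 3.63% and 2.82% of all genes), and 4 higher and 1 lower in shNR4A3 against shNT cells (7.02% and 1.75%, against 3.91% and 3.32%). In shNR4A2 against shNT cells 0 of 5 regulators, 0 of 6 zinc exporters, 0 of 9 heat shock and 0 of 6 glucocorticoid-responsive genes were called. At the same time 1 of 11 zinc importers and 1 of 10 copper genes were called lower, and iron genes were called higher in 2 and lower in 1 of 10. HMOX1, the heme oxygenase gene, was the only listed gene that was called and at least 2-fold higher (273 ± 88.1 TPM against 129 ± 45.6 TPM, n = 3, log2 fold change 1.08, SE 0.243, adjusted p = 0.0218 by edgeR). By DESeq2 its adjusted p was 0.0514 and in 1 fit of all 18 libraries 0.0814, and it lost the call without shNT control library 3 (0.0639) or shNR4A2 control library 3 (0.0555). HMOX1 was also called higher in shNR4A3 than in shNT cells without LPS (234 ± 51.3 TPM, log2 fold change 0.92, SE 0.208, adjusted p = 0.0170 by edgeR). In shNR4A3 against shNT cells without LPS the counts were 0 of 5 regulators, 0 of 6 zinc exporters, 1 zinc importer higher and 1 lower, 1 copper and 2 iron genes higher, and 0 heat shock or glucocorticoid-responsive genes.

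With LPS, 2 of 58 listed genes were called higher and 1 lower in shNR4A2 against shNT cells (3.45% and 1.72%, against 4.31% and 2.65% of all genes), and 7 higher and 1 lower in shNR4A3 against shNT cells (12.1% and 1.72%, against 3.99% and 2.46%). shNR4A2 against shNT cells had 2 zinc importers called higher and 1 iron gene lower, and shNR4A3 against shNT cells had 2 zinc importers, 2 copper, 1 iron and 2 glucocorticoid-responsive genes higher and 1 zinc importer lower. Between the depleted lines 2 iron genes were called lower in shNR4A2 cells without LPS and 1 with it, where 1.14% and 1.06% of all genes were called lower, and no other gene of these 7 lists was called. No listed gene was called in an interaction.

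The genes most like the family in pattern were sought over the 18 libraries, as the Pearson r of log2 CPM with the log2 of the members' summed CPM, among 16928 genes outside the family. The 5 highest were TMA7 (r = 0.910), DBI (0.909), OSGIN1 (0.899), NQO1 (0.896) and NOP10 (0.893). NQO1, a quinone reductase gene, and OSGIN1, an oxidative stress-induced growth inhibitor gene, are both known targets of NRF2. DBI encodes an acyl-CoA binding protein, NOP10 a component of small nucleolar ribonucleoproteins, and TMA7 a small protein linked to translation. As a description, since the pattern chose them, OSGIN1 stood at 11.2 ± 2.41 TPM in shNT control and 41.3 ± 9.55 TPM in shNR4A2 control cells, NQO1 at 70.8 ± 11.2 and 132 ± 34.3 TPM, and DBI at 164 ± 10.8 and 233 ± 11.4 TPM. In shNR4A3 control cells they stood at 12.2 ± 1.84, 79.4 ± 11.2 and 163 ± 11.2 TPM. TMA7 and NOP10 differed less, at 466 ± 33.5 and 343 ± 15.3 TPM in shNT control against 543 ± 61.1 and 411 ± 4.85 TPM in shNR4A2 control cells.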

How the data were processed

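RNA of 18 THP-1 libraries was sequenced after polyA selection. The deposited files hold raw counts per Ensembl gene, made by the authors. Their processing notes name Trimmomatic 0.36, STAR 2.5.2b, featureCounts of Subread 1.5.2 and GRCh38. Annotation release, strand setting and treatment of reads with several matches are not given in the sources used here. Symbols came from GENCODE 29 (56898 of 57500 genes). TPM was computed from counts and the deposited merged-exon length. Groups followed the GEO titles, 3 libraries each, and no libraries were identical. Totals of 16171161 to 23929138 counts limit precision for MT1M and MT1A. The floor of 3 counts covers counting error only, whereas standard errors include the spread between libraries.

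Each comparison was fitted on its own libraries with edgeR 4.0.16 in R 4.3.3 (filterByExpr, TMM, quasi-likelihood F test), with Benjamini-Hochberg adjustment over all genes tested, called at an adjusted p under 0.05. Standard errors were derived from the F statistics. Alternatives were RLE scaling, DESeq2 1.42.0, no filter, a replicate block by library number, 1 fit of all 18 libraries, a 2-fold limit and each library left out in turn. Leaving out every library numbered 3 and the length of the principal transcript were added after seeing the data. The fits were checked on simulated data.

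Same-numbered libraries deviated together from their group means (correlations of 0.159 to 0.533) in 8 of the 9 pairwise comparisons, so the numbers were taken to pair them. The main fits did not use this pairing, and the replicate block did. In LPS against control in shNT cells the correlation for number 2 was 0.0598, and the numbers were not taken as pairs there. Nor were they in the interactions of either depleted line with shNT (0.0174 and 0.0266). The study describes its replicates as independent experiments on the same lines.

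The members, gene lists and tests were chosen with earlier results of these data known. Named genes were the members, list genes that were called and at least 2-fold changed (at most 4 per list and comparison), with their values in other comparisons, and the 5 genes most like the summed members. Some cell type markers, SLC30A1 and TSC22D3 were named besides. Lists covered other metallothioneins, metal-response regulators, zinc exporters, zinc importers, copper, iron, heat shock and glucocorticoid-responsive genes, besides cell type markers. One list of cell type markers is not reported here.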

Additional observations from a re-analysis of the deposited data

How the results depend on the processing

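Members called were counted again under each alternative, and the share of all genes called higher under the same setting is given beside them. For single libraries left out, counts of all genes called in either direction are given instead. With the library number as a block (replicate block), members called went from 3 to 6 for shNR4A2 against shNT without LPS and from 2 to 5 for shNR4A2 against shNR4A3 without LPS, counts that include MT1M, which passed the filter only through the libraries where it was high. Over the 5 abundant members they went from 2 to 5 and from 2 to 4 (12.1% and 6.04% of all genes). With LPS the same comparisons went from 1 to 5 and 1 to 4 (15.2% and 11.8%), and shNR4A3 against shNT without LPS from 0 to 1 (8.09%). The block changed no other count of members, including LPS in shNT cells and the interactions with shNT, where the numbers do not pair all libraries. For shNR4A2 against shNT and against shNR4A3 with LPS, in place of 1 member each, 4 and 2 were called without a filter (2.87% and 1.57%), 2 and 2 by DESeq2 (5.06% and 2.39%), and 3 and 3 in 1 fit of all 18 libraries (5.76% and 3.33%). With a 2-fold limit 1 member (MT2A) stayed called for LPS in shNR4A3 cells (6.17%), 1 (the sparse MT1M) for shNR4A2 against shNT without LPS (1.54%) and 0 elsewhere. With every library numbered 3 left out, 1 member was called for shNR4A2 against shNT without LPS (0.871%), and 0 for LPS in shNR4A2 cells (6.29%), shNR4A2 against shNT with LPS (0.891%) and shNR4A2 against shNR4A3 without and with LPS (0.587% and 0.0644%). Leaving out 1 library at a time gave 0 to 1 members for LPS in shNR4A2 cells and 0 to 2 for shNR4A2 against shNR4A3 without LPS, shNR4A2 against shNT with LPS and shNR4A2 against shNR4A3 with LPS. For LPS in shNR4A2 cells these fits called 2113 to 3375 of all genes, against 3050 in the main fit. The lowest counts of all genes for the other comparisons stand in the last paragraph. RLE scaling moved no call of a named gene. The causes were not tested, except that fits of fewer libraries have less power by construction.

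In direction, 24 of the 68 members' estimates changed sign when single libraries or all libraries numbered 3 were left out. None of the 24 was called, and their estimates lay between -0.12 and 0.12. Among them were the MT2A interaction of shNR4A2 against shNT (-0.50 to 0.25 over single libraries left out) and MT2A in shNR4A2 against shNR4A3 with LPS (-0.29 to 0.36).

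Counts of all genes called moved by more than 1.5 times as follows. The block gave 4751 in place of 3050 for LPS in shNR4A2 cells. For shNR4A2 against shNT, shNR4A3 against shNT and shNR4A2 against shNR4A3 it gave 3733, 2267 and 1800 in place of 1019, 1108 and 480 without LPS, and 4385, 3401 and 3666 in place of 1085, 1005 and 362 with it. Without a filter 1611 and 838 genes were called for shNR4A2 against shNT and against shNR4A3 without LPS, and 1843, 1839 and 1102 for the same order of 3 comparisons with LPS. One fit of all 18 libraries gave 4601, 1691 and 1032 for LPS in shNR4A2 cells and for shNR4A2 against shNT and against shNR4A3 with LPS, and DESeq2 gave 700 for the last. Without libraries numbered 3 the counts were 1919 and 2090 for LPS in shNR4A2 and shNR4A3 cells, 228, 338 and 138 between lines without LPS and 200, 149 and 20 with it. Single libraries left out gave as few as 517, 649, 249, 342, 383 and 94 genes in these 6 comparisons and as many as 1693 for shNR4A3 against shNT with LPS. For the interactions, in place of 0, no filter gave 29, 138 and 29 genes, the block 8, 22 and 0, DESeq2 2, 10 and 1, and single libraries left out up to 8, 44 and 0.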
